A study of Mus musculus with 3 samples.

Results

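The Iroquois homeobox genes Irx1 to Irx6 were examined in the list of Isl1 peaks from cardiac progenitor cells (CPCs). All 6 genes entered by name and not by a measured value, although earlier results of these data were known when they were chosen. The peaks kept were those whose deposited gene symbol was 1 of the 6. This gave 15 of 14082 distinct peaks, 7 for the chromosome 13 cluster (Irx1, Irx2 and Irx4) and 8 for the chromosome 8 cluster (Irx3, Irx5 and Irx6). The list came from ChIP-Seq, an assay that uses an antibody to recover the crosslinked DNA fragments a protein occupies and then reads them by sequencing. The 3 samples were 2 Isl1 ChIP replicates, made with a monoclonal Isl1 antibody from DSHB, and 1 input, which is chromatin set aside ahead of the pulldown. All came from mouse E14 Tg(Nkx2-5-EmGFP) embryonic stem cells, 1 line with a green fluorescent reporter at an early cardiac gene, that were differentiated and harvested at day 5. The methods of the study give directed differentiation with growth factors or hanging drops as routes, and the sample titles do not say which was used. The authors merged the replicates into 1 list with no score, so the sequencing depth is unknown, the replicates cannot supply an error, and no test between groups was possible. A list of positions holds no RNA level, so the cardiac identity of the cells was not checked.

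Iroquois genes encode homeodomain transcription factors of the TALE class, in which extra residues lengthen the loop between the helices of the homeodomain. Mammals carry them in a pair of clusters that arose by duplication, so that Irx1 is the counterpart of Irx3, Irx2 of Irx5 and Irx4 of Irx6. In the heart, Irx4 is a factor of ventricular identity, and Irx3 and Irx5 are known for their part in conduction and in the repolarisation of ventricular muscle. Isl1 is a LIM-homeodomain factor of second heart field progenitors.

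The sequences that set the peaks apart came from the NCBIM37 assembly, which is the mm9 sequence of the peak list, read 5′ to 3′. Peaks over Irx2 and Irx5 are shown first, because these counterparts each had a peak in the coding sequence at a like distance from the transcription start site (TSS). The central 120 bp of both lie on the plus strand, at chr13:72768926-72769045 and chr8:94884156-94884275, with CG dinucleotides in capitals.
Irx2 +2740 bp: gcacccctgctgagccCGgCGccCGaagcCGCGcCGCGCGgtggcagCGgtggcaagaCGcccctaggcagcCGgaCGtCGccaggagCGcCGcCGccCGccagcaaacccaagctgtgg
Irx5 +2520 bp: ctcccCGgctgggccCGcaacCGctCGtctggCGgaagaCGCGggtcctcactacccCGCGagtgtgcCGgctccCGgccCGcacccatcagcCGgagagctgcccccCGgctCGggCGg

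The homeobox is shown because the widest Irx peak was centred on it. Each line is a stretch of 162 bases from the homeobox, not the whole of it, on the gene's own strand. It ends just after the codons of the recognition helix, a part of the homeodomain that contacts DNA. Capitals mark bases that differ from Irx3. The positions are chr8:94324395-94324556 (minus strand) for Irx3, chr8:95201162-95201323 (plus) for Irx6, chr8:94883553-94883714 (plus) for Irx5, chr13:72097440-72097601 (minus) for Irx1, chr13:72768139-72768300 (plus) for Irx2 and chr13:73404998-73405159 (plus) for Irx4.
Irx3 homeobox: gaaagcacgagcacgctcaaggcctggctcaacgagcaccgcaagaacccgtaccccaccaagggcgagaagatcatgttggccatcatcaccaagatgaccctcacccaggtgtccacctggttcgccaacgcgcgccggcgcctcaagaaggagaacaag
Irx6 homeobox: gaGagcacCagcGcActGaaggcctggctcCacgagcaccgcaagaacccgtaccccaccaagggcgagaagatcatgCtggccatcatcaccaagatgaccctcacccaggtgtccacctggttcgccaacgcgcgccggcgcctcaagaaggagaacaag
Irx5 homeobox: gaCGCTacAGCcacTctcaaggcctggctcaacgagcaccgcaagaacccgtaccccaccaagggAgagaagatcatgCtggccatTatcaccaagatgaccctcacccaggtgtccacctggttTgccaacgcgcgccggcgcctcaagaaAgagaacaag
Irx1 homeobox: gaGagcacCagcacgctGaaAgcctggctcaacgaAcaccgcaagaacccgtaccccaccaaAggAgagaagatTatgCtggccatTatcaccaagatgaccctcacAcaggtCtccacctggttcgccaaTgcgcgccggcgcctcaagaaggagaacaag
Irx2 homeobox: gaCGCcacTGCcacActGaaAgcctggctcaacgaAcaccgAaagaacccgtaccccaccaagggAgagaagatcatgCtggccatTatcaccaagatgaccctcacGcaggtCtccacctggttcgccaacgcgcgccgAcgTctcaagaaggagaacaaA
Irx4 homeobox: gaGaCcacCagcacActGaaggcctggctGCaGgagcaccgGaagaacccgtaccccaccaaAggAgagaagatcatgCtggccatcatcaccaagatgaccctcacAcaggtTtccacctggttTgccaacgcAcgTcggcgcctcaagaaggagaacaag

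Distal peaks had other kinds of sequence. The central 200 bp of the peak 102859 bp downstream of Irx5 (chr8:94984455-94984654, plus strand) are given with CG dinucleotides in capitals, and 60 bp from the centre of the peak 52315 bp downstream of Irx6 (chr8:95250474-95250533, plus strand) show a short repeated unit.
Irx5 +102859 bp: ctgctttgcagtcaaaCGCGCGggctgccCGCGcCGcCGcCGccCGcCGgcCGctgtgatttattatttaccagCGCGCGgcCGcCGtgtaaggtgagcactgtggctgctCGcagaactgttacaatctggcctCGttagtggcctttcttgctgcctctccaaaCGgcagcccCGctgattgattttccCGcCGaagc
Irx6 +52315 bp: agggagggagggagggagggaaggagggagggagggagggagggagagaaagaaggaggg

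All 6 Irx genes were bound by Isl1 in the sense that each was the closest gene to at least 1 peak. Across 21031 protein-coding genes, 39.1% had an assigned peak. Irx1, Irx2, Irx5 and Irx6 had 3 peaks each, Irx3 had 2 and Irx4 had 1. Thus 5 of the 6 genes had at least 2 peaks, against 11.1% of protein-coding genes, and 4 had at least 3, against 4.15%. These counts include peaks in repeated sequence, which are set apart below. The stretch of genome closest to each Irx gene, over which peaks can be assigned to it, was also longer than that of most genes. For each gene, the stretch closer to its TSS than to that of any other protein-coding gene in GENCODE was measured. It was 785 kb for Irx1, 483 kb for Irx3, 404 kb for Irx2, 348 kb for Irx4, 180 kb for Irx6 and 159 kb for Irx5. The median over 22188 protein-coding genes was 46.8 kb. The deposited assignment also used other TSSs, such as that of D730050B12Rik near Irx2, so peaks could be assigned to Irx genes over shorter stretches than these. The stretches rest on GENCODE starts and the peak numbers on the deposited assignment, so they are not matched gene by gene. By the closest protein-coding start in GENCODE, the Irx6 peak 52315 bp downstream went to Gm3272. The peak of 4930555K05Rik went to Irx4, and 2 peaks of D730050B12Rik went to Irx2. The chromosome 13 cluster then had 12 peaks and the chromosome 8 cluster 7. The part of stretch length in the number of peaks per gene was not tested.

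**Figure D1:**
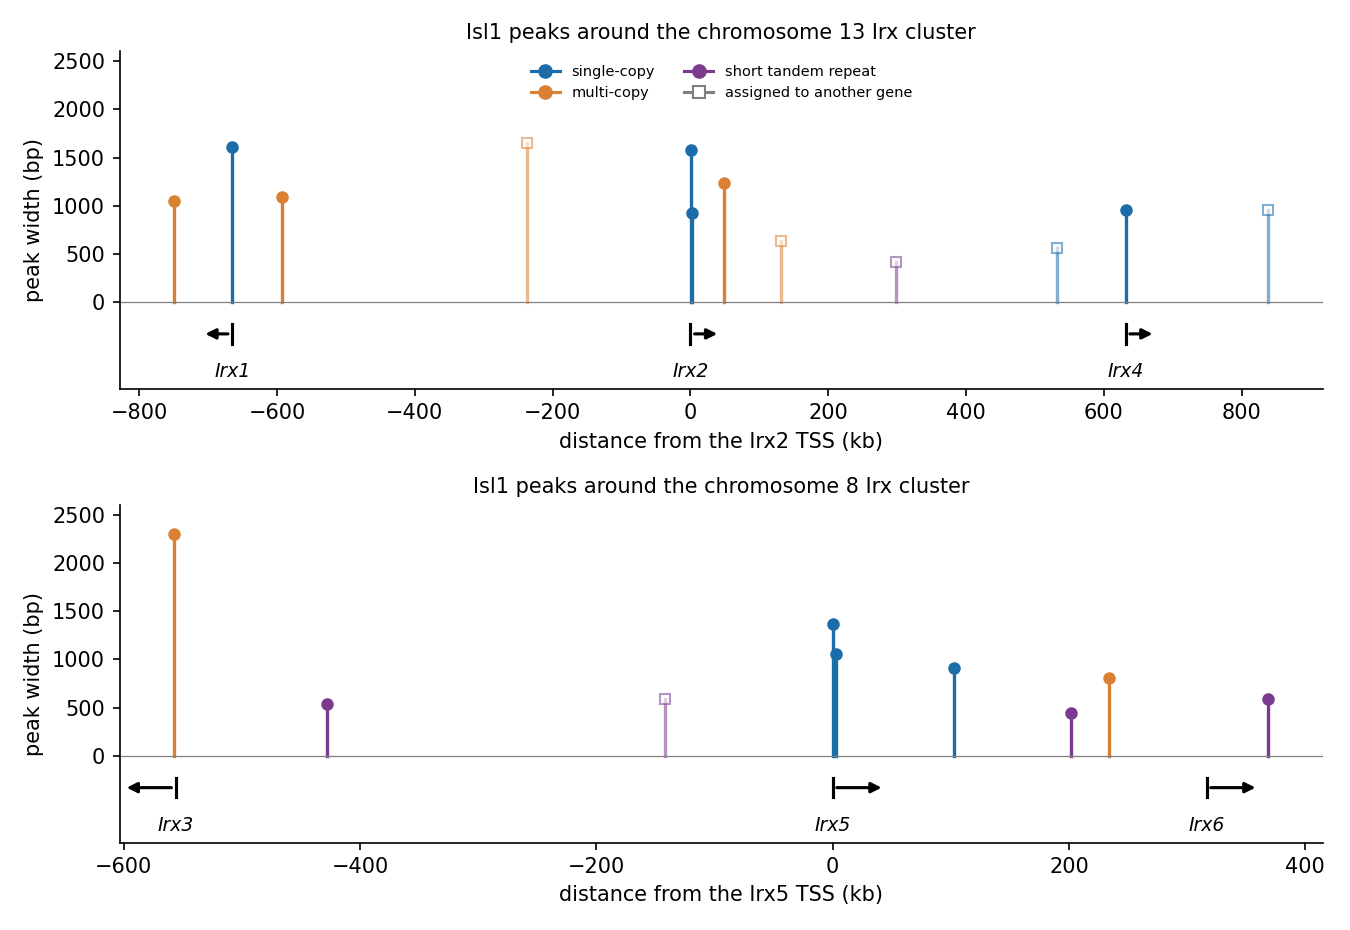
Isl1 peaks around the chromosome 13 cluster (top) and the chromosome 8 cluster (bottom), with distance from the Irx2 or Irx5 TSS in kb on the x axis and peak width in bp on the y axis; arrows mark each Irx TSS and the direction of transcription. Filled circles are the 15 peaks assigned to an Irx gene and open squares the 6 assigned to another gene, coloured by the kind of sequence at the centre. Peaks stand at the TSS of every Irx gene except Irx6.

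Counted by distance, the 15 peaks fell into 7 within 3 kb of the assigned TSS and 8 more than 40 kb away, with none between. Of all peaks, 51.1% lay more than 10 kb from the assigned TSS. Peaks within 1 kb numbered 4 of 15 (26.7%, 95% Wilson interval 10.9% to 52.0%, counting error only), beside 38.5% of all peaks, and belonged to Irx1, Irx2, Irx4 and Irx5. A peak within 1 kb was present for 24.2% of protein-coding genes. The chromosome 13 cluster held 3 of these peaks among its 7 and the chromosome 8 cluster 1 among its 8. The Irx3 peak was not among them, since its midpoint lay 1069 bp into the gene, although the peak was wide enough to cover the TSS. With a limit of 3 kb, 5 Irx genes had a peak, beside 25.5% of protein-coding genes, and the same 5 had one within 10 kb, beside 28.3%. Irx6 was the exception, with its closest peak edge 52021 bp from the TSS.

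Irx1 is transcribed from the minus strand of chromosome 13 (72095680 to 72101171). Its promoter peak, chr13:72099994-72101608, was 1614 bp wide, covered the TSS and had its midpoint 370 bp downstream in coding sequence. The other Irx1 peaks were intergenic, at chr13:72016819-72017873 and chr13:72173032-72174121, 83825 bp downstream and 72405 bp upstream of the TSS. Their widths of 1054 and 1089 bp were alike. Its counterpart Irx3, also on the minus strand (chromosome 8, 94322428 to 94325553), had a peak at chr8:94323331-94325637. This peak was 2306 bp wide, and 63.4% of its bases were coding, a larger coding share than the 17.1% of the Irx1 promoter peak. Only 1.39% of all peaks were at least that wide. It also covered the annotated start of the noncoding transcript D230002A01Rik. The Irx1 and Irx3 peaks at the TSS therefore differed in extent: the peak of Irx3 ran on over most of its gene, and that of Irx1 stopped before the homeobox. The second Irx3 peak, chr8:94453355-94453892, was intergenic, 128070 bp upstream and 537 bp wide.

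Irx2 and Irx5 had the layout most alike between the clusters, a peak over the TSS followed by a second peak in coding sequence. At Irx2 (chromosome 13, 72766245 to 72771644, plus strand) the peaks were chr13:72765697-72767273 and chr13:72768522-72769448, centred 240 and 2740 bp downstream of the TSS, 1576 and 926 bp wide and 1249 bp apart. At Irx5 (chromosome 8, 94881695 to 94885351, plus strand) they were chr8:94881284-94882656 and chr8:94883685-94884746, centred 275 and 2520 bp downstream, 1372 and 1061 bp wide and 1029 bp apart. In both genes the first peak had its midpoint in the UTR and the second was mostly coding, with a coding share of 77.1% at Irx2 and 85.8% at Irx5. A peak within 1 kb together with another 1 to 5 kb downstream occurred in 0.594% of protein-coding genes, and in 2.46% of the 5088 genes that had a peak within 1 kb. This distance rule was set after the Irx2 and Irx5 peaks were seen. The likeness was one of position: the longest identical run was 27 bp between the promoter peaks and 14 bp between the coding peaks printed above. For the second Irx2 peak, another annotated Irx2 start lay closer, 940 bp from the midpoint. Each gene also had a distal intergenic peak downstream, at chr13:72814453-72815689 for Irx2 (48826 bp from the TSS, 1236 bp wide) and chr8:94984097-94985011 for Irx5 (102859 bp, 914 bp wide).

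Irx4 and Irx6 were the least alike of the counterparts. Irx4 (chromosome 13, 73397945 to 73407068, plus strand) had 1 peak, chr13:73397666-73398623, which was 957 bp wide, covered the TSS and had its midpoint 199 bp downstream in the UTR. Irx6 (chromosome 8, 95198188 to 95204855, plus strand) had 3 peaks, all intergenic and none near the TSS. They were chr8:95083352-95083794, chr8:95115229-95116036 and chr8:95250208-95250798, centred 114615 bp upstream, 82556 bp upstream and 52315 bp downstream of the TSS. For the downstream peak the closest protein-coding start in GENCODE was that of another gene, Gm3272, 9629 bp away. The widths were 442, 807 and 590 bp, so each was narrower than the Irx4 peak. Every gene of the chromosome 13 cluster thus had a peak over its TSS, and in the chromosome 8 cluster Irx3 and Irx5 did.

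The median width was 1089 bp (range 926 to 1614) over the 7 peaks of the chromosome 13 cluster and 860.5 bp (442 to 2306) over the 8 of the chromosome 8 cluster, beside 947 bp for all peaks (interquartile range 717 to 1243). The ranges overlapped. The clusters differed at the narrow end, where 5 peaks of the chromosome 8 cluster, all distal, were narrower than any peak of the chromosome 13 cluster. Near the TSS the 7 Irx peaks had a median of 1372 bp, beside 1040 bp over the 5890 peaks within 3 kb of a TSS, and the 8 distal Irx peaks had 860.5 bp, beside 882 bp over the 7193 peaks beyond 10 kb. Near and distal widths overlapped. The 926 bp of the second Irx2 peak, the 957 bp of the Irx4 peak and the 1061 bp of the second Irx5 peak fell within the distal range.

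**Figure D2:**
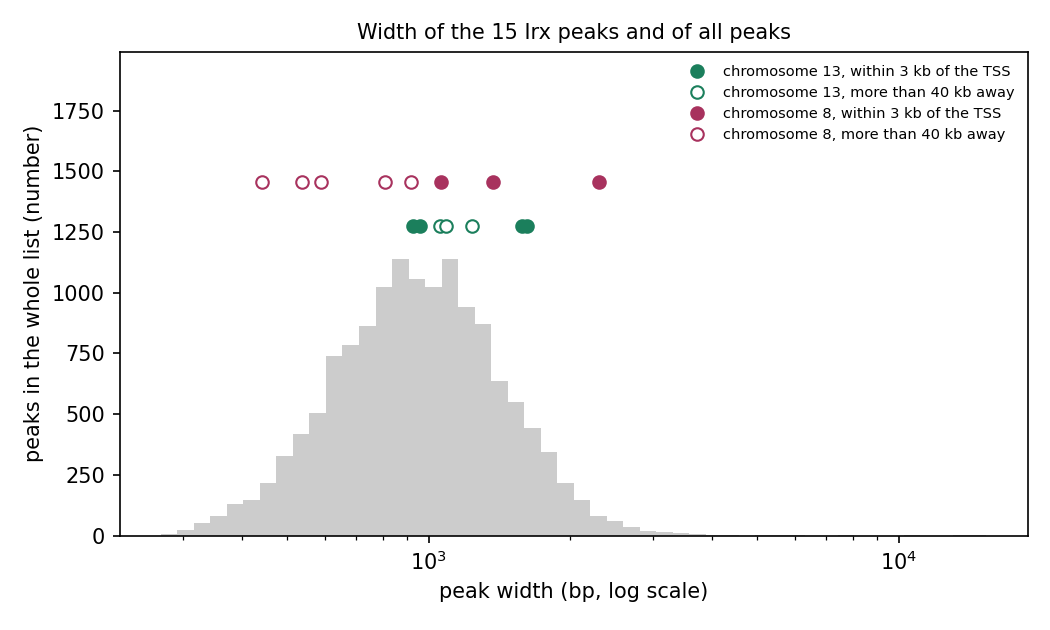
Widths of the 15 Irx peaks (circles, filled within 3 kb of the TSS and open beyond 40 kb, 1 row per cluster at an arbitrary height) above the histogram of the widths of all 14082 peaks (grey bars, number of peaks); the x axis is width in bp on a log scale. The chromosome 8 cluster spans 442 to 2306 bp and the chromosome 13 cluster 926 to 1614 bp.

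GC content in the central 200 bp averaged 68.1% ± 9.68 (SD, n = 15 peaks) for the Irx peaks, beside 66.6% ± 9.26 for all peaks. In equally long windows 2 kb to the left and right it averaged 49.0% for the Irx peaks and 43.7% for all peaks. Peaks are not replicates, and the SD is the spread between them. The mean was 71.9% ± 7.40 in the chromosome 13 cluster (n = 7) and 64.7% ± 10.6 in the chromosome 8 cluster (n = 8), a difference smaller than either the spread or the gap between near and distal peaks. Near peaks averaged 75.8% ± 6.66 (n = 7), and all peaks within 3 kb 73.1% ± 6.36. Distal peaks averaged 61.3% ± 6.13 (n = 8), and all peaks beyond 10 kb 61.6% ± 7.88. By gene, the TSS peaks of Irx5, Irx4, Irx2 and Irx1 had 82%, 80%, 79.5% and 78% GC, the coding peaks of Irx5 and Irx2 76.5% and 72%, and the Irx3 peak 62.5%. The Irx3 centre was thus the poorest in GC of the near peaks, at a value like those of the distal ones.

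CG dinucleotides, the sites of DNA methylation, numbered 34 in the central 200 bp of the Irx5 promoter peak, 33 at Irx2, 32 at Irx1, 27 at Irx4 and 17 at Irx3, and 27 and 25 in the coding peaks of Irx5 and Irx2. The median over all peaks within 3 kb was 24, so 6 of the 7 near Irx peaks lay above it. Irx3 lay below it. The distal peaks of Irx1 had 12 and 14, that of Irx2 had 9, and the Irx6 peak 82556 bp upstream had 16, around the median of 11 for all peaks beyond 10 kb. The Irx5 distal peak held 22, and the 3 peaks with short repeated units held 0. A centre without CG was found in 14.8% of all peaks, and the 3 such Irx peaks were all in the chromosome 8 cluster.

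**Figure D3:**
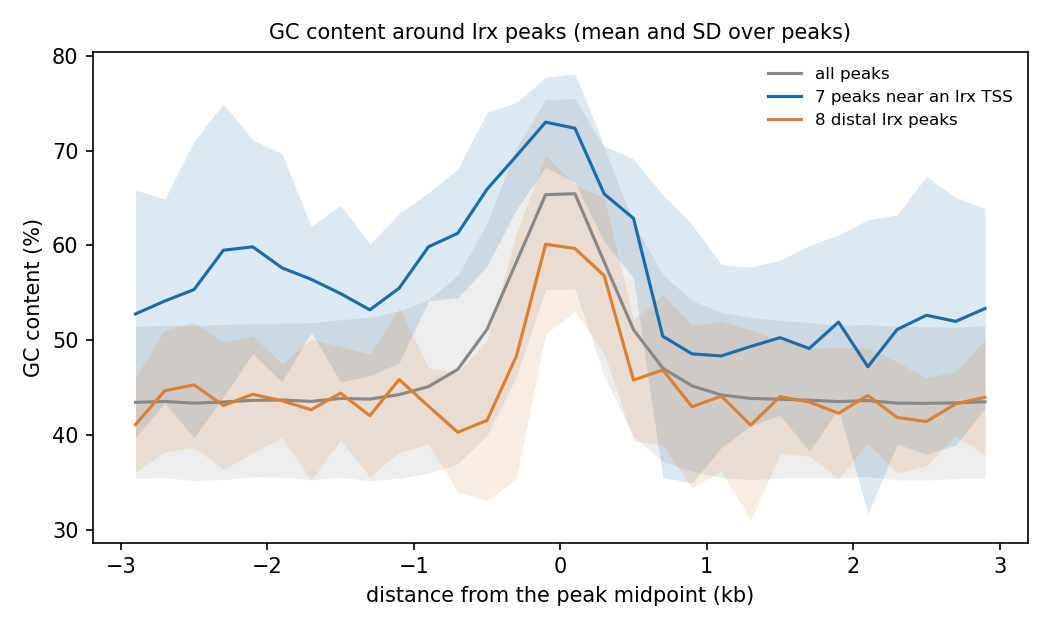
Mean GC content (lines, %) with SD over peaks (bands) in 200 bp bins against distance from the peak midpoint in kb, for the 7 Irx peaks within 3 kb of a TSS (blue), the 8 distal Irx peaks (orange) and all peaks (grey). Both Irx sets rise at the midpoint, the near set to a higher level than the distal set.

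Copy number separated the near and distal Irx peaks further. Every 31-base word of the central 200 bp was looked up in the whole genome in either orientation, the median number of exact hits was taken, and a peak with a median of at least 2 was called multi-copy. By this measure 8 of the 15 Irx peaks were multi-copy, beside 46.5% of all peaks, 3 of 7 in the chromosome 13 cluster and 5 of 8 in the chromosome 8 cluster. Among the 8 distal Irx peaks 7 were multi-copy, beside 81.2% of all peaks beyond 10 kb, so the distal Irx peaks were near the background. Within 3 kb 1 of 7 was, beside 4.16% of all peaks within 3 kb. Single-copy peaks remained at 4 genes, namely Irx1, Irx2, Irx4 and Irx5, beside 28.7% of protein-coding genes. They numbered 1, 2, 1 and 3 in that order, so only Irx2 and Irx5 kept at least 2 peaks. With words of 75 bases, 5 Irx peaks were multi-copy, beside 28.4% of all peaks, and all 6 genes had a single-copy peak, beside 33.8% of protein-coding genes. Reads from repeated sequence can be placed at several positions, and the part of that placement in these peaks was not tested.

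The 7 multi-copy distal peaks were of 2 kinds. The first kind held 3 tandem repeats, called where at least 80% of the central bases equalled the base a fixed 1 to 10 bp before, as in 11% of all peaks and 18.5% of those beyond 10 kb. The Irx3 peak 128070 bp upstream repeated a unit of 5 bp over 100% of its centre, the Irx6 peak 114615 bp upstream a unit of 6 bp over 99.5%, and the Irx6 peak 52315 bp downstream a unit of 4 bp over 86.7%. In all 3 the central 200 bp were purines throughout on 1 strand. Their 31-base words had median copy numbers of 19281, 18818 and 449. By 75-base words these were 5392, 7056 and 1, so the downstream Irx6 repeat was single-copy at the longer word length.

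The second kind was multi-copy sequence without a repeated unit of 1 to 10 bp. Where in the genome its copies lie was not examined. Median copy numbers of 31-base words were 50.5 and 316.5 at the Irx1 peaks 83825 bp downstream and 72405 bp upstream, 117.5 at the Irx2 peak 48826 bp downstream and 1094.5 at the Irx6 peak 82556 bp upstream. By 75-base words they were 1, 3, 6 and 191. An Irx1 peak and an Irx6 peak of this kind, on different chromosomes, shared an identical run of 180 bp in opposite orientation. The run begins at the capitals in chr13:72173732-72173791 (plus strand) and chr8:95115365-95115424 (minus strand), of which 60 bp each are given.
Irx1 -72405 bp: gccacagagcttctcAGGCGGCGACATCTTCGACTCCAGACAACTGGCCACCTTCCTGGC
Irx6 -82556 bp: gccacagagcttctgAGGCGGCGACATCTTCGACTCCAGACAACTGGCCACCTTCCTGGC
The next longest run between any 2 Irx peaks was the 27 bp of the Irx2 and Irx5 promoter peaks.

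**Figure D4:**
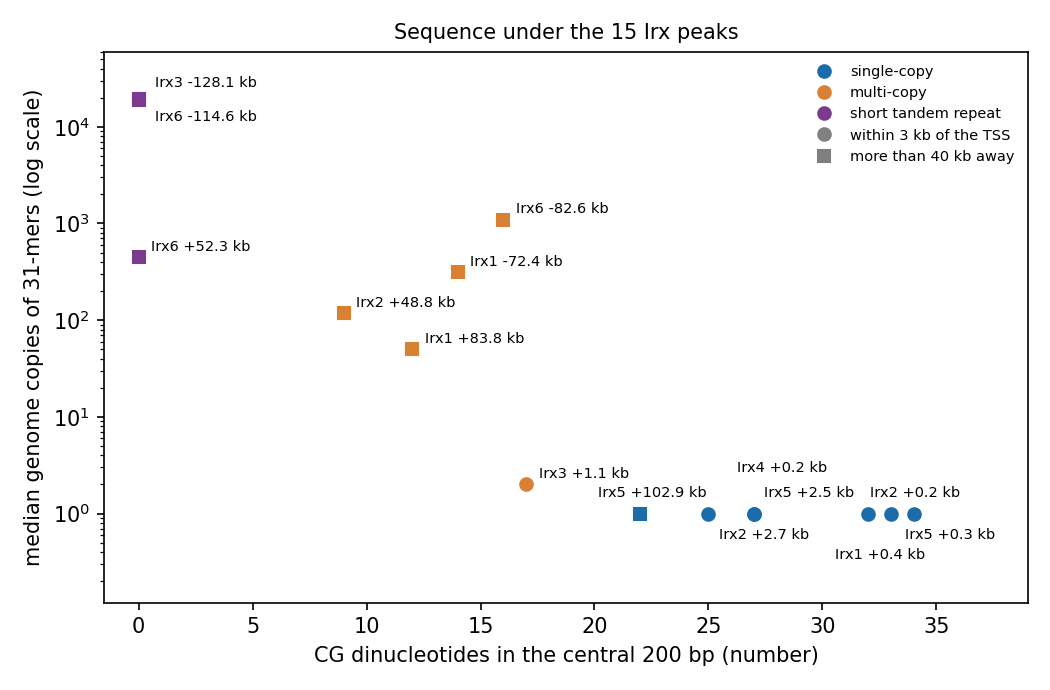
Number of CG dinucleotides in the central 200 bp (x axis) against median genome copies of 31-base words (y axis, log scale) for the 15 Irx peaks, labelled by gene and distance from the TSS in kb; circles lie within 3 kb of the TSS and squares beyond 40 kb. The 7 single-copy peaks have 22 to 34 CG and the 8 multi-copy peaks 0 to 17.

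The Irx5 peak 102859 bp downstream was the only single-copy peak among the 8 distal ones, beside 18.8% of all peaks beyond 10 kb. Its centre had 62.5% GC and 22 CG, which gave an observed to expected CG ratio of 1.139, a value that corrects the CG number for the C and G content. Of the 1354 single-copy peaks beyond 10 kb, 90.2% had a lower ratio and 17.5% reached 1. The ratios of the near peaks were 1.06 at Irx1, 1.07 and 0.983 at Irx2, 1.02 and 0.962 at Irx5, 0.891 at Irx3 and 0.845 at Irx4. Those of the 4 distal multi-copy peaks without a short unit ran from 0.476 to 0.736. On this measure the Irx5 distal peak stood with the promoter peaks, although no annotated gene started in it.

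The Irx3 peak was the only near peak called multi-copy, at the threshold of 2, and its words recurred in other Irx genes. All 162 bases of the Irx3 homeobox stretch printed above lay inside its central 200 bp, including the 24 bases that encode the recognition helix. Of the 170 words of 31 bases in the centre, 75 recurred in the coding exon of Irx6 and 28 in that of Irx5. Within this homeobox stretch, Irx6 differed from Irx3 at 7 of the 162 positions (95.7% identity) and shared a run of 83 bp. Irx5 and Irx1 each differed at 13 (92.0%), Irx4 at 17 (89.5%) and Irx2 at 19 (88.3%). No other Irx gene had the whole stretch inside a peak. At Irx5 the coding peak began within it and took in 29 of the 162 bases, at Irx2 it fell between the 2 near peaks, 241 bp from the closer one at the helix codons, and at Irx1, Irx4 and Irx6 the helix codons lay 2514, 6495 and 48904 bp from the closest assigned peak. The Irx6 homeobox, the one most like that of Irx3, thus had no peak. By 75-base words the Irx3 centre had a median of 1 copy. A midpoint in a coding exon, as at Irx1, Irx3 and the second peaks of Irx2 and Irx5, was found in 13.7% of all peaks.

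Short strings were then sought on both strands as exact letters. TAAT, the core recognised by many homeodomains, was present in the central 200 bp of 2 of 15 Irx peaks, the Irx1 peak 83825 bp downstream and the Irx5 peak 102859 bp downstream, beside 19.4% of all peaks. In windows of 200 bp lying 2 kb to the left and right it was present in 14 of 30 for the Irx peaks and in 72.2% for all peaks. These windows were richer in GC around the Irx peaks, at 49.0%, than around all peaks, at 43.7%. Over whole peaks it was present in 12 of 15, beside 73.8%, and the Irx2 peak 48826 bp downstream alone held 15 copies. The LIM-homeodomain type was sought as CTAATTG, together with the related string CTAATGG. Both contain TAAT. They were in 0 of 15 centres, beside 0.412%, and in 2 of 15 whole peaks, beside 5%. Both matches read CTAATGG and are given with 10 bp to either side, the site in capitals. The Irx4 site, chr13:73398007-73398013, lay 62 bp from the TSS, and the Irx5 site, chr8:94984785-94984791, lay in the single-copy distal peak, 234 bp from its midpoint.
Irx4 promoter site: caagcgacaaCTAATGGagacatttcc
Irx5 distal site: gggtgccgtgCTAATGGggccagcggc
For the GATA factors the string sought was AGATAA. It was in 0 centres, beside 1.7%, and in 4 whole peaks, beside 17.4%, all of them distal. Of these only the Irx5 peak was single-copy by 31-base words. Among all whole peaks AGATAA was in 1678 of the 7193 beyond 10 kb and in 611 of the 5890 within 3 kb. ACANNTGT, the Iroquois type string, was in 1 centre, beside 4.81%, and in 2 whole peaks, beside 14%, both assigned to Irx1. Among all whole peaks it was in 1299 of the 7193 beyond 10 kb and in 544 of the 5890 within 3 kb. The Irx1 peak 83825 bp downstream, which was multi-copy by 31-base words, held 3 copies that read ACAGGTGT, spaced 214 bp apart. The Irx1 promoter peak held 1 that read ACAGCTGT. These matches are letters in the reference, with no measure of binding at them.

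Peaks were also counted within each cluster irrespective of the assigned gene, in the stretch from the first to the last base of the 3 genes extended by 250 kb to either side. The chromosome 13 stretch (71845680 to 73657068) held 12 peaks in 1.81 Mb, or 6.62 per Mb (95% exact Poisson interval 3.42 to 11.6, counting error only). The chromosome 8 stretch (94072428 to 95454855) held 9 in 1.38 Mb, or 6.51 per Mb (2.98 to 12.4). The densities were alike, and 29.7% of 2463 autosomal tiles of 1 Mb reached either of them, with a median of 5 peaks per tile. For single-copy peaks the values were 3.31 per Mb (1.22 to 7.21) on chromosome 13, reached by 30.6% of tiles, and 2.17 per Mb (0.448 to 6.34) on chromosome 8, reached by 41.8%. Densities of this size were thus common across the genome.

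Of these 21 peaks, 6 were assigned to genes other than Irx. On chromosome 13 they were 2 peaks of D730050B12Rik and 1 each of Gm20554, 4930555K05Rik and Lpcat1, an enzyme of phospholipid remodelling. The peak of 4930555K05Rik (chr13:73297682-73298248) was single-copy, 566 bp wide with 13 CG, and lay 99.98 kb from the Irx4 TSS, which was the closest protein-coding start in the GENCODE annotation. The Lpcat1 peak was a promoter peak 84 bp from its own TSS. On chromosome 8 the only other peak, assigned to Crnde, a long noncoding RNA gene beside Irx5, was a tandem repeat 141.764 kb from the Irx5 TSS.

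Other TALE homeobox genes, whose products include partners of homeodomain factors, were counted beside the Irx genes. Of 12, 7 (58.3%) had an assigned peak, beside the 39.1% of protein-coding genes, and 6 of 12 had one within 1 kb, beside 24.2%. Those 6 were the cofactor genes Meis1, Pbx2, Pbx3, Pknox1 and Pknox2 and the repressor gene Tgif2, with peaks 910, 62, 31, 168, 413 and 529 bp from the TSS. Peaks per gene had a median of 1 over the 12 genes, beside 3 for the Irx genes and 0 for all protein-coding genes. Of 14 genes tied to Irx function in the heart (chamber regulators, partners and conduction genes), 8 (57.1%) had a peak, beside the same 39.1%. A peak within 1 kb was present for 4 of the 14, beside 24.2% of protein-coding genes. Among these were the cardiac factor genes Nkx2-5 and Hand2 and the nuclear receptor gene Rxra, with peaks at 346, 936 and 12 bp. With 12 and 14 genes, shares of this size are imprecise, and whether they differed from the background was not tested.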

How the data were processed

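Isl1 occupancy was measured by ChIP-Seq in 2 ChIP replicates with 1 input, grouped by sample title. Per the methods of the study, the authors aligned reads to mm9 with bowtie2, removed duplicates with Picard 1.136, called peaks with MACS14, dropped ENCODE blacklisted regions, kept areas common to both replicates with bedtools 2.15 and assigned each peak to the closest TSS with HOMER. The deposited list gives positions and signed distances to the TSS in bp, with no score, count or coverage, so depth is unknown, and its starts are uncertain by 1 bp.

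Identical lines were dropped, which took 14165 lines to 14082 peaks. Width was end minus start. Sequence features, copy number and gene positions used the NCBIM37 genome and GENCODE vM1 through Python 3.11.15, pandas 2.3.3, NumPy 2.4.6, SciPy 1.17.1, pysam 0.24.0 and Biopython 1.88, tested on simulated data. Protein-coding genes were named from a RefSeq table of GRCm38.p6, with no coordinates taken from it, and it matched 99.8% of 9313 gene names. All 6 Irx genes are named, then every gene assigned a peak inside the cluster stretches and the genes of both lists with a peak within 1 kb. Gm3272, outside this rule, was named after its values were seen. A few items the rule covers are not reported here. The genes, lists and settings were chosen with earlier results of these data known. Results were described without tests, because 1 combined list has no replicates.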

Additional observations from a re-analysis of the deposited data

How the results depend on the processing

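Of 37 alternatives over 12 results, 26 stayed close to the reported value. Keeping peaks within 10 kb of the TSS left 4 peaks in the chromosome 13 cluster and 3 in the chromosome 8 cluster. Keeping single-copy peaks by 31-base words left 4 and 3, and densities of 3.31 and 2.17 peaks per Mb. By 75-base words, an alternative added after the data were seen, the chromosome 8 cluster kept 5. Assigning peaks to the closest protein-coding TSS of GENCODE raised the chromosome 13 cluster from 7 to 12 and lowered the chromosome 8 cluster from 8 to 7. TAAT was found in 1 Irx peak with a central window of 100 bp and in 12 over whole peaks. Multi-copy Irx peaks numbered 5 by 75-base words. The number of Irx genes with a peak stayed between 4 and 6.

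Leaving out each replicate was not possible, since the list combines them. No paired analysis was possible because 1 combined list carries no replicate values. Peaks under the threshold of the caller are not in such a list, so a gene without a near peak, such as Irx6, is not shown to be unbound.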
